A study of Komagataella pastoris with 6 samples.

Results

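Transcripts of 6 amino acid permease genes of the methylotrophic yeast *Komagataella phaffii* were followed in 3 kinds of culture. The genes were BQ9382_C2-3380 and BQ9382_C2-6320, both annotated as high-affinity proline permeases, BQ9382_C2-5105 and BQ9382_C3-6435, both annotated as high-affinity methionine permeases, BQ9382_C4-3750, annotated as a dicarboxylic amino acid permease, and BQ9382_C3-1840, annotated as a general amino acid permease of the AGP2 kind. They are 6 of the 5427 genes of the count table and all 6 were among the 5426 genes tested. They were given as a list of locus tags that was chosen by measured values of these libraries, with no threshold stated, and their changes against *GS115*-YPA are taken to be the values used. In at least 1 of the other cultures 4 of them had a log2 fold change above 2 against *GS115*-YPA, and the other 2 share an annotation with one of these. These changes are therefore given as a description without a test. The direct comparison of *X33*-YPA with *GS115*-YPAH5x was tested for 5 of them. It uses the same libraries and is not independent of the choice, and for BQ9382_C3-1840, which was above 2 in *GS115*-YPAH5x only, it is a description too. The table gives no gene symbol for these genes, so they are called by their locus tags. The AGP2-like gene also carries a second annotation as a high-affinity polyamine permease.

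The cultures were all grown for 24 h in YPA, a rich medium of yeast extract and peptone with acetate as the carbon source. *GS115* is a *his4* strain that cannot make histidine, and *X33* is a histidine prototroph with an intact *HIS4*. *GS115*-YPA (libraries A and B) and *X33*-YPA (libraries C and D) received no histidine, and *GS115*-YPAH5x (libraries E and F) received 650 µM histidine. *X33*-YPA differs from *GS115*-YPA in strain and *GS115*-YPAH5x differs from it in the medium, so *X33*-YPA and *GS115*-YPAH5x differ from each other in both.

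Yeast amino acid permeases are membrane proteins that bring amino acids into the cell together with protons. In *Saccharomyces cerevisiae* the proline permease Put4 and the general permease Gap1 are made mainly when preferred nitrogen sources are scarce, whereas Mup1 is the high-affinity carrier of methionine and Dip5 that of glutamate and aspartate. Transporters of this family are withdrawn from the plasma membrane after ubiquitin is attached by the ligase Rsp5, which is guided by adaptor proteins. Agp2 of *S. cerevisiae* is known for its part in the uptake of carnitine and polyamines.

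The libraries held 32194047 to 43447246 counts. The 6 genes together took between 0.0405% (library A) and 0.294% (library E) of the counts. Their lowest count was 322, for which counting alone gives an error of 5.57%, so the spread between duplicate libraries sets the precision. Duplicates differed most in *GS115*-YPA, with an SD of the log2 difference over genes of 0.37, the other pairs having 0.28 (*X33*-YPA) and 0.22 (*GS115*-YPAH5x). Levels are CPM, each gene's share of a library's counts in units of 1e-06, scaled by the trimmed mean of M values (TMM) and are compared between libraries within a gene, not between genes, since no gene lengths were at hand. In RNA of whole cultures, more transcript per cell and more cells that express a gene cannot be told apart.

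The proline permease gene BQ9382_C2-3380 was at a low level in *GS115*-YPA, with 29.4 CPM in library A and 37.9 in B. It stood at 379 CPM in C and 469 in D, the *X33*-YPA libraries, and at 288 CPM in E and 259 in F, those of *GS115*-YPAH5x. No library of either culture came near the *GS115*-YPA libraries. In *X33*-YPA it stood 3.65 above *GS115*-YPA on the log2 scale (SE 0.19, n = 2 and 2), which is 12.6-fold and the 20th highest of 5426 genes. In *GS115*-YPAH5x it stood 3.02 above (SE 0.19), which is 8.12-fold and the 29th highest.

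The other proline permease gene, BQ9382_C2-6320, did not follow it. Its level was 15.2 CPM in A, 15.7 in B, 11.8 in C, 12.4 in D, 17.8 in E and 20.3 in F. The 3 pairs of duplicates did not overlap, but the steps between them were small, at -0.35 (SE 0.15) on the log2 scale for *X33*-YPA and 0.31 (SE 0.15) for *GS115*-YPAH5x. The ratio of the counts of BQ9382_C2-3380 to those of BQ9382_C2-6320 was 1.94 in A, 2.42 in B, 32.1 in C, 37.7 in D, 16.2 in E and 12.7 in F. Since the lengths of the genes are the same in every library, the rise of this ratio does not depend on them.

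The methionine permease genes were as unequal. BQ9382_C2-5105 had 39.3 CPM in A, 56.5 in B, 472 in C, 391 in D, 677 in E and 573 in F. All libraries of both cultures lay far above those of *GS115*-YPA, and those of *GS115*-YPAH5x were the highest. On the log2 scale *X33*-YPA was 3.17 above *GS115*-YPA (SE 0.21), which is 9.01-fold and the 32nd highest of all genes. *GS115*-YPAH5x was 3.70 above it (SE 0.22), which is 13.0-fold and the 12th highest.

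BQ9382_C3-6435, the other methionine permease gene, went the opposite way. It had 15.8 CPM in A, 18.8 in B, 9.37 in C, 7.92 in D, 9.31 in E and 9.41 in F. Both *GS115*-YPA libraries were above the other 4, which overlapped. On the log2 scale *X33*-YPA differed by -1.0 (SE 0.17) and *GS115*-YPAH5x by -0.89 (SE 0.17), so that the level was 0.499 and 0.54 of that in *GS115*-YPA. The count ratio of BQ9382_C2-5105 to BQ9382_C3-6435 was 2.49 in A, 3.0 in B, 50.4 in C, 49.4 in D, 72.7 in E and 60.8 in F.

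**Figure D1:**
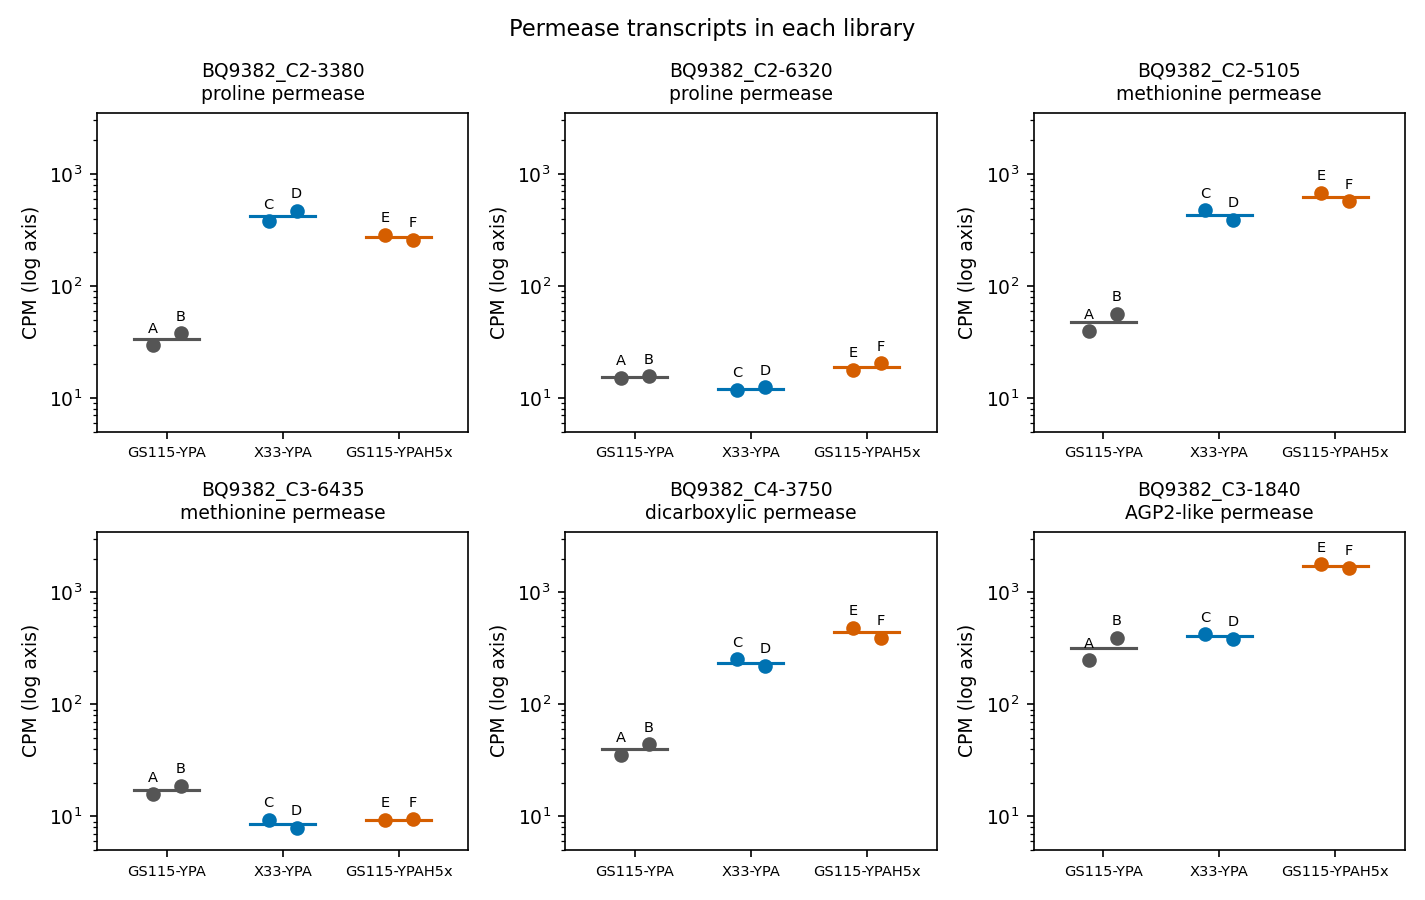
Level of each of the 6 permease genes in each library, in CPM on a log axis, by culture; points are libraries with their letters and lines are means of 2. BQ9382_C2-3380, BQ9382_C2-5105 and BQ9382_C4-3750 are high in both *X33*-YPA and *GS115*-YPAH5x, BQ9382_C3-1840 is high in *GS115*-YPAH5x, BQ9382_C3-6435 is highest in *GS115*-YPA, and BQ9382_C2-6320 stays between 11.8 and 20.3 CPM.

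The dicarboxylic amino acid permease gene BQ9382_C4-3750 had 35.6 CPM in A, 43.9 in B, 252 in C, 221 in D, 485 in E and 395 in F. The 3 cultures were in the same order as for BQ9382_C2-5105, with no overlap between any of them. *X33*-YPA exceeded *GS115*-YPA by 2.57 on the log2 scale (SE 0.18), 5.95-fold and the 69th highest, and *GS115*-YPAH5x did so by 3.47 (SE 0.18), 11.1-fold and the 18th highest. A second gene of the same annotation, BQ9382_C3-5535, had 16.8 CPM in A, 25.6 in B, 36.5 in C, 38.4 in D, 61.6 in E and 61.7 in F. It rose less, with log2 fold changes of 0.82 (SE 0.18, adjusted p = 0.00319) and 1.54 (SE 0.19, adjusted p = 8.38e-05), the first value in each case being that of *X33*-YPA. The count ratio of BQ9382_C4-3750 to BQ9382_C3-5535 was 2.12 in A, 1.71 in B, 6.91 in C, 5.77 in D, 7.87 in E and 6.40 in F. Of the 3 pairs of equal annotation, this was the one in which both genes stood above *GS115*-YPA in both cultures.

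**Figure D2:**
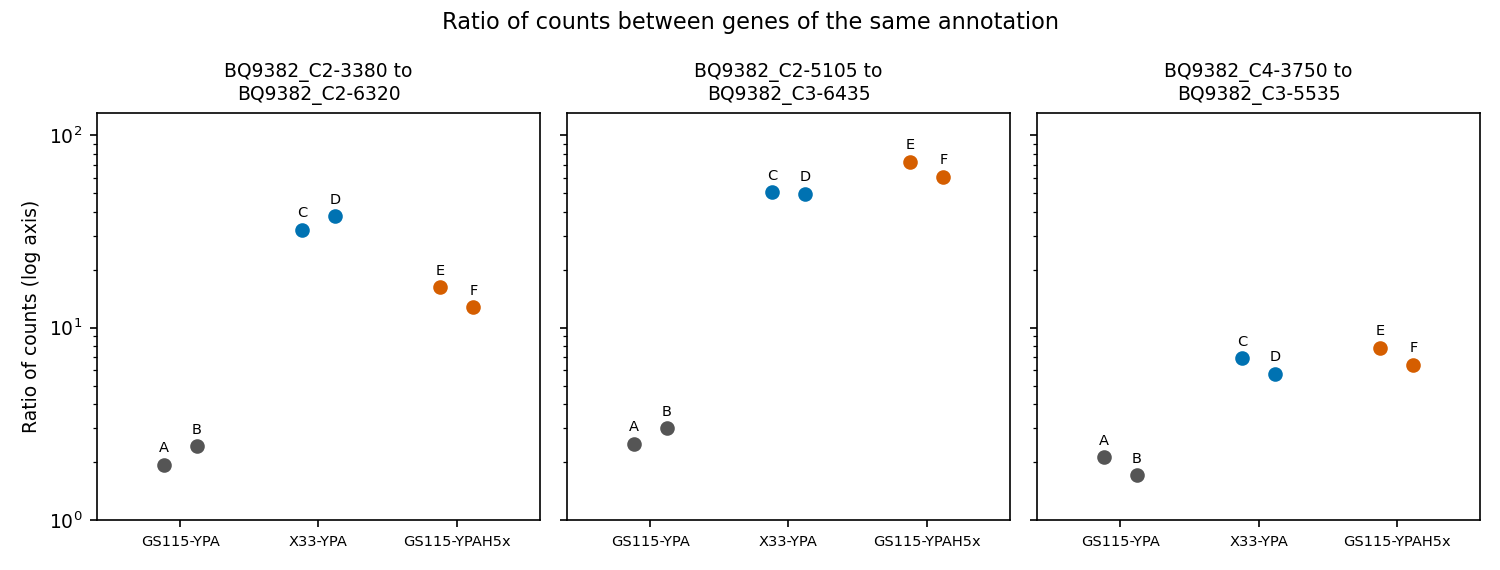
Ratio of raw counts between 2 genes of the same annotation in each library, on a log axis, for the proline, methionine and dicarboxylic permease pairs. In every pair the *X33*-YPA and *GS115*-YPAH5x libraries lie above the *GS115*-YPA libraries, which are at 3.0 or less.

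The AGP2-like gene BQ9382_C3-1840 had its high level in the cultures with added histidine. It had 249 CPM in A, 393 in B, 423 in C, 385 in D, 1791 in E and 1667 in F. Libraries of *GS115*-YPA and *X33*-YPA overlapped, and both libraries of *GS115*-YPAH5x were far above them. Against *GS115*-YPA the difference on the log2 scale was 2.43 (SE 0.21) with added histidine, 5.39-fold and the 82nd highest of all genes, and 0.33 (SE 0.20, 95% interval -0.12 to 0.79) for *X33*-YPA. Its *GS115*-YPA duplicates differed more than those of the other 5 genes, by 1.58-fold, and the *X33*-YPA value was 0.70 without library B and 0.00041 without library A.

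Of all tested genes, the *X33*-YPA libraries had 33.4% called above *GS115*-YPA and 32.8% called below it, at an adjusted p under 0.05, the shares being 30.7% and 29.1% with added histidine. No such calls are counted for the 6 genes, since values of these comparisons were known when they were chosen. The median log2 fold change of the 6 genes was 1.45 and 2.73 in the 2 comparisons, beside 0.01 and 0.00051 over all genes tested. The choice of the 6 genes shaped their medians, so these are a description only. Both comparisons use the same *GS115*-YPA libraries.

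Set directly against each other, *X33*-YPA and *GS115*-YPAH5x differed in 3 of the 5 genes tested. BQ9382_C2-3380 was higher in *X33*-YPA by a log2 fold change of 0.63 (SE 0.17, 95% interval 0.25 to 1.02, adjusted p = 0.0158), with both *X33*-YPA libraries above both *GS115*-YPAH5x libraries. It was the 1 gene of the 5 that was higher, beside 19.8% of all tested genes. The difference missed the threshold without library D, at 0.47 (adjusted p = 0.125), and without library F, at 0.55 (adjusted p = 0.144).

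Lower in *X33*-YPA were BQ9382_C4-3750 and BQ9382_C2-6320, that is 2 of the 5, beside 21.6% of all tested genes. BQ9382_C4-3750 was lower by -0.89 (SE 0.17, 95% interval -1.27 to -0.52, adjusted p = 0.00313). BQ9382_C2-6320 was lower by -0.65 (SE 0.15, 95% interval -0.99 to -0.32, adjusted p = 0.00757), which missed the threshold without library F, at -0.56 (adjusted p = 0.0846), and without TMM scaling, at -0.39 (adjusted p = 0.0676). In both genes the *X33*-YPA libraries were below those of *GS115*-YPAH5x. For BQ9382_C3-1840, not tested here, the log2 fold change was -2.10 (SE 0.21, 95% interval -2.57 to -1.63), the 35th lowest of 5426 genes.

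The methionine permease genes did not pass in this comparison. BQ9382_C2-5105 was at the threshold, with a log2 fold change of -0.53 (SE 0.19, 95% interval -0.97 to -0.10, adjusted p = 0.0502), both *X33*-YPA libraries being lower. Without library A or library B it passed, with the same log2 fold change of -0.53 (adjusted p = 0.0101 and 0.00995), and DESeq2 gave -0.55 (adjusted p = 0.0221). Without TMM scaling it had -0.26 (adjusted p = 0.259), and without library D or E -0.41 (adjusted p = 0.262 and 0.245). BQ9382_C3-6435 had -0.12 (SE 0.17, 95% interval -0.50 to 0.27, adjusted p = 0.612), which without TMM scaling became 0.16 (adjusted p = 0.505). The median over the 6 genes was -0.59, beside 0.03 over all genes.

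**Figure D3:**
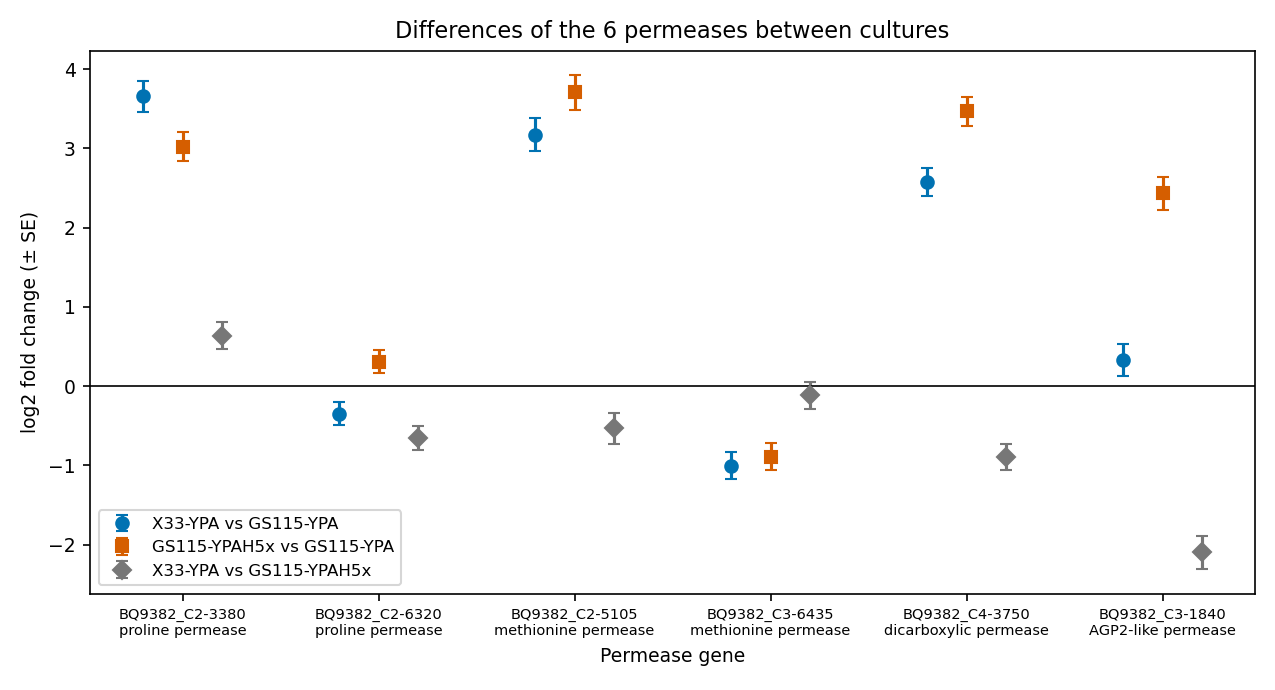
Log2 fold change of the 6 permease genes in the 3 comparisons, with bars of 1 SE from the edgeR fit to all 6 libraries. The proline permease gene BQ9382_C2-3380 has its larger rise in *X33*-YPA (3.65 against 3.02), whereas BQ9382_C2-5105, BQ9382_C4-3750 and BQ9382_C3-1840 have theirs in *GS115*-YPAH5x (3.70, 3.47 and 2.43).

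The table holds 13 other genes described as amino acid permeases or transporters, those of the vacuole and mitochondria being listed apart. Against *GS115*-YPA, *X33*-YPA had 7 of them higher, 3 lower and 3 that did not pass, around a median of 0.41 on the log2 scale. *GS115*-YPAH5x had 8 higher, 3 lower and 2 that did not pass, around a median of 0.88. Of all tested genes, 33.4% were called higher and 32.8% lower in *X33*-YPA, and 30.7% and 29.1% in *GS115*-YPAH5x. The general amino acid permease gene BQ9382_C1-1685, whose *S. cerevisiae* counterpart Gap1 carries most amino acids, was at 8.91 CPM in A, 11.6 in B, 1150 in C, 1113 in D, 1094 in E and 1020 in F. It had the highest log2 fold change of all genes in both, 6.78 (SE 0.20, adjusted p = 5.77e-08) and 6.68 (SE 0.20, adjusted p = 1.08e-07), and the cultures with high levels differed by 0.10 (SE 0.16, 95% interval -0.25 to 0.45, adjusted p = 0.635).

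A further 2 genes with large summed levels rose more with added histidine. BQ9382_C1-3400, annotated as an arginine or lysine permease, had 90.5 CPM in A, 122.7 in B, 250.4 in C, 222 in D, 667 in E and 583 in F. Its log2 fold changes were 1.15 (SE 0.18, adjusted p = 0.000287) and 2.55 (SE 0.18, adjusted p = 3.23e-06), and *X33*-YPA was lower than *GS115*-YPAH5x by -1.40 (SE 0.18, adjusted p = 0.000557). BQ9382_C1-6695, annotated as a general or a tryptophan and tyrosine permease, rose by 1.23 (SE 0.17, adjusted p = 0.000156) and 2.06 (SE 0.18, adjusted p = 8.73e-06), with a direct difference of -0.83 (SE 0.17, adjusted p = 0.00476). In both genes the 3 cultures did not overlap.

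Among the genes that fell, BQ9382_C2-3435 had the lowest value in *X33*-YPA, -1.86 on the log2 scale (SE 0.29, adjusted p = 0.00029), and also in the direct comparison, -1.52 (SE 0.29, adjusted p = 0.00334). Its annotations conflict, 1 being an AGP1-like permease and the other an acetate transporter, and its duplicates spread by up to 1.74-fold. BQ9382_C1-2675, annotated as a potential general amino acid permease, fell most in *GS115*-YPAH5x, with -0.90 (SE 0.14, adjusted p = 0.000486), from 57.6 and 61.3 CPM to 33.4 and 30.3 CPM. BQ9382_C1-2770, annotated as a very low affinity methionine permease, had the highest direct difference, 0.52 (SE 0.13, adjusted p = 0.0126). The low-affinity methionine permease gene BQ9382_C4-4745, named after its values were seen, went the other way, with -1.35 directly (SE 0.18, adjusted p = 0.000656). Against *GS115*-YPA it had -0.10 (adjusted p = 0.639) in *X33*-YPA and 1.25 (adjusted p = 0.000225) in *GS115*-YPAH5x.

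In the direct comparison 2 of these 13 genes were higher in *X33*-YPA and 7 lower, beside 19.8% and 21.6% of all tested genes. The other 4 did not pass, and the median was -0.36. No more than 1 of the 13 was called higher without any of the libraries C, D, E and F, and 4 were called lower without D or without F.

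**Figure D4:**
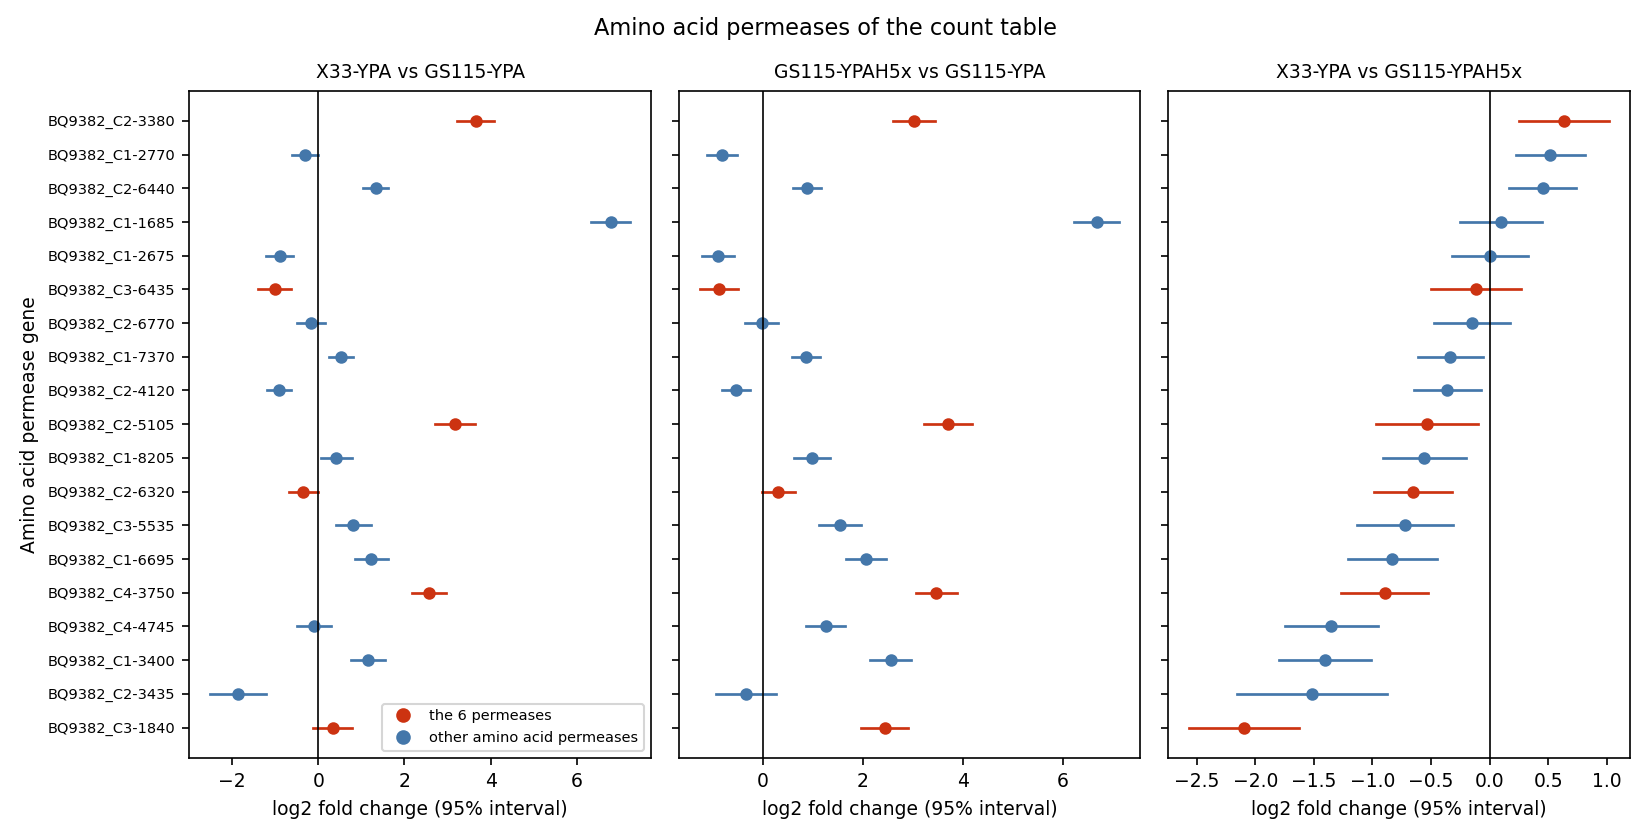
Log2 fold change with its 95% interval for the 6 permease genes and the 13 other amino acid permease genes in the 3 comparisons, ordered by the direct difference between *X33*-YPA and *GS115*-YPAH5x. BQ9382_C1-1685 has the highest values against *GS115*-YPA (6.78 and 6.68), BQ9382_C2-3380 is at the top of the direct comparison (0.63) and BQ9382_C3-1840 at the bottom (-2.10).

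Of 15 genes for enzymes of proline, glutamate and aspartate, *X33*-YPA had 5 that rose against *GS115*-YPA, 7 that fell and 3 that did not pass (median -0.40). *GS115*-YPAH5x had 5 that rose, 4 that fell and 6 that did not pass (median 0.22). The gene with the largest mean level was BQ9382_C4-0910, for glutamine synthetase, which makes glutamine from glutamate and ammonia. It had 5944 CPM in A, 7796 in B, 8213 in C, 8618 in D, 14912 in E and 15182 in F. Against *GS115*-YPA it rose by 1.13 (SE 0.16, adjusted p = 0.000244) on the log2 scale with added histidine, and *X33*-YPA had 0.29 (SE 0.16, adjusted p = 0.132). A glutamate dehydrogenase gene, BQ9382_C1-2155, had -0.40 (adjusted p = 0.0661) and -0.36 (adjusted p = 0.1). An aspartate aminotransferase gene, BQ9382_C1-2655, had -0.49 (adjusted p = 0.0197) and -0.25 (adjusted p = 0.2). The list holds a second gene for each enzyme, named after its values were seen, that changed more. The NAD-dependent glutamate dehydrogenase gene BQ9382_C2-5330 had 1.18 (adjusted p = 5.63e-05) and 1.84 (adjusted p = 5.4e-06). The aspartate aminotransferase gene BQ9382_C4-2320 had -1.92 (adjusted p = 5.15e-06) and -1.84 (adjusted p = 8.17e-06).

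Proline dehydrogenase starts the breakdown of proline and was named after its values were seen. Its gene BQ9382_C1-1425 had 29.2 CPM in A, 36.1 in B, 161 in C, 284 in D, 108 in E and 123 in F. Its log2 fold changes were 2.77 (SE 0.26, adjusted p = 1.1e-05) and 1.82 (SE 0.25, adjusted p = 0.000173), and the direct difference was 0.95 (SE 0.24, adjusted p = 0.0122). The gene BQ9382_C2-2330, for delta-1-pyrroline-5-carboxylate dehydrogenase, had 2.39 and 2.06, with a direct difference of 0.33 (adjusted p = 0.128). The lowest values of the list against *GS115*-YPA were those of the asparagine synthetase gene BQ9382_C3-2800, -2.86 and -2.22. These genes, too, were named after their values were seen. In the direct comparison 3 of the 15 genes were higher and 7 lower, beside 19.8% and 21.6% of all tested genes, and 5 did not pass (median -0.24). No more than 1 was higher without library D or F, and the 7 became 4 without C or without TMM scaling, 2 without D and 3 without F.

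Of 13 genes of methionine and S-adenosylmethionine synthesis, *X33*-YPA had 4 that rose against *GS115*-YPA, 7 that fell and 2 that did not pass (median -0.39). *GS115*-YPAH5x had 4 that rose, 5 that fell and 4 that did not pass (median -0.27). BQ9382_C3-1580, for adenosylhomocysteinase, which releases homocysteine, had 138 CPM in A, 193 in B, 995 in C, 821 in D, 1306 in E and 1355 in F. Its log2 fold changes were 2.45 (SE 0.19, adjusted p = 4.06e-06) and 3.01 (SE 0.20, adjusted p = 1.94e-06). BQ9382_C2-6170, for methionine synthase, which makes methionine from homocysteine, rose by 1.78 (SE 0.18, adjusted p = 1.92e-05) and 2.55 (SE 0.18, adjusted p = 3.23e-06). BQ9382_C3-3885, for aspartate-semialdehyde dehydrogenase, an early step from aspartate, fell by 1.97 on the log2 scale (adjusted p = 2.54e-06) and by 1.73 (adjusted p = 6.64e-06). The lowest values of the list were those of BQ9382_C4-3500, named after its values were seen and annotated as a methionine and cysteine synthase, at -2.02 and -1.88. The 7 that fell in *X33*-YPA became 3 without library D, and the 5 that fell in *GS115*-YPAH5x became 3 without library F and 8 without TMM scaling. In the direct comparison 1 was higher and 5 were lower, beside 19.8% and 21.6% of all tested genes, and 7 did not pass (median -0.24). The 5 became 1 without library D, 2 without F or without TMM scaling and 3 without C or E. The 1 that was higher did not pass without any of these 4 libraries and became 2 without TMM scaling.

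Of 15 genes for regulators of permeases, named by their roles in *S. cerevisiae*, *X33*-YPA had 5 that rose against *GS115*-YPA, 4 that fell and 6 that did not pass (median 0.07). *GS115*-YPAH5x had 5 that rose, 5 that fell and 5 that did not pass (median 0.06). The neighbouring genes BQ9382_C2-0090 and BQ9382_C2-0095, both for ubiquitin-binding adaptors of the Rsp5 ligase, fell in both cultures. BQ9382_C2-0090 had 1257 CPM in A, 1765 in B, 231 in C, 271 in D, 539 in E and 493 in F, and fell by 2.59 on the log2 scale (SE 0.19, adjusted p = 3.09e-06) and by 1.55 (SE 0.19, adjusted p = 7.59e-05). BQ9382_C2-0095 fell by 1.69 (SE 0.16, adjusted p = 1.52e-05) and by 1.13 (SE 0.16, adjusted p = 0.000236). BQ9382_C1-5910, annotated as *GCN4*, the activator of amino acid synthesis genes, had 0.21 (adjusted p = 0.277) and -0.39 (adjusted p = 0.0657). Other genes of the list were named after their values were seen. BQ9382_C2-3110, for a protease of an amino acid sensor system, rose by 1.98 (adjusted p = 4.95e-06) and by 1.69 (adjusted p = 1.62e-05). BQ9382_C2-5640, an endocytosis regulator, had 0.29 (adjusted p = 0.156) and 0.93 (adjusted p = 0.00108). The ubiquitin ligase gene BQ9382_C2-5090 did not pass, at -0.11 and 0.24. The arrestin-related BQ9382_C4-1430 had -0.04 and -0.82. The 5 that rose in *X33*-YPA became 3 without C, D or F and in the fit of 2 groups. In the direct comparison 3 were higher, 6 were lower and 6 did not pass (median -0.35), and the 6 became 2 without library D and 1 without E or F. Without TMM scaling 6 were higher and 1 lower.

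Of 12 genes for amino acid transporters of the vacuole and mitochondria, *X33*-YPA had 2 that rose against *GS115*-YPA, 4 that fell and 6 that did not pass (median -0.33). *GS115*-YPAH5x had 4 that rose, 3 that fell and 5 that did not pass (median 0.08), and the 4 became 2 without TMM scaling. In *X33*-YPA the 2 that rose became 1 with the DESeq2 size factors, 3 without TMM scaling and 0 in the fit of 2 groups. The 4 that fell became 6 without the 10 most abundant genes. Calls of this list also changed when single libraries were left out. BQ9382_C2-1995, which exports large neutral amino acids from the vacuole, had the largest mean level and was lower in *X33*-YPA than in *GS115*-YPAH5x by -1.17 (SE 0.15, adjusted p = 0.000567). In that comparison 2 were higher, 3 were lower and 7 did not pass (median -0.07), and the 2 became 1 without C, D or F.

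**Figure D5:**
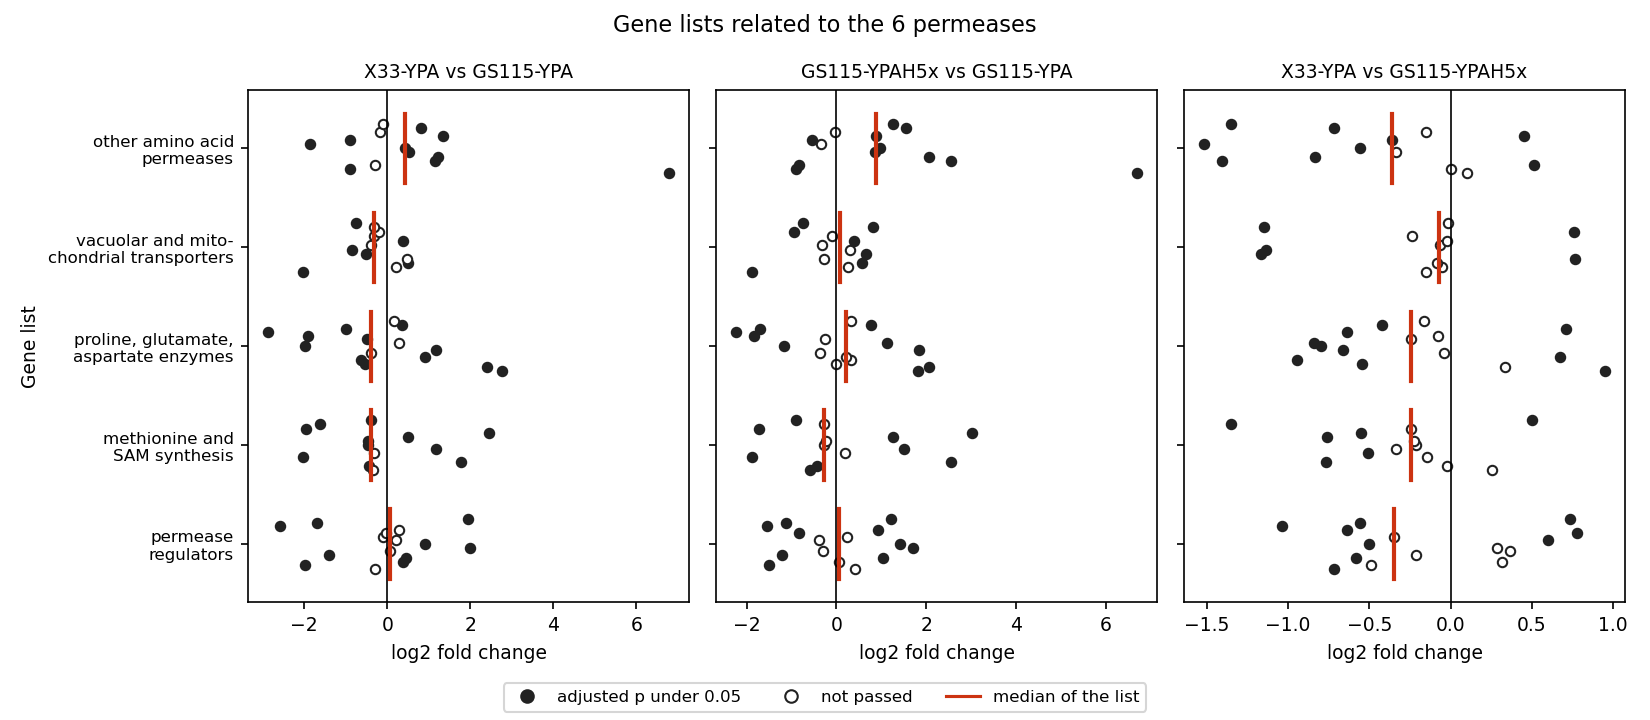
Log2 fold change of every gene of the 5 related lists in the 3 comparisons; filled points passed an adjusted p of 0.05, open points did not, and the vertical bars are list medians. The other amino acid permeases have the highest median against *GS115*-YPA (0.41 and 0.88), and every list holds genes on both sides of 0.

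The genes next in locus tag number to the 3 permease genes that were high in both cultures had smaller changes against *GS115*-YPA. BQ9382_C2-3375 and BQ9382_C2-3385, on either side of BQ9382_C2-3380, had log2 fold changes of 0.76 and 1.39 in *X33*-YPA, and of 0.68 and 0.99 with added histidine. BQ9382_C2-5100 and BQ9382_C2-5110, beside BQ9382_C2-5105, had 0.95 and 1.06 in the former and 0.91 and 0.49 in the latter. BQ9382_C4-3745 and BQ9382_C4-3755, beside BQ9382_C4-3750, had -0.74 and -0.27 in the former but 0.17 and 0.59 in the latter. In the direct comparison they had -0.91 (adjusted p = 0.00226) and -0.86 (adjusted p = 0.00121), as low as BQ9382_C4-3750 with -0.89. The neighbours of BQ9382_C2-6320, BQ9382_C2-6315 and BQ9382_C2-6325, had -0.65 and -1.09 there, beside its -0.65. Those of BQ9382_C2-3380 had 0.08 and 0.39, and those of BQ9382_C2-5105 had 0.04 and 0.57. Against *GS115*-YPA some neighbours changed more than the permease gene. BQ9382_C3-6430, before BQ9382_C3-6435, had -2.81 in *X33*-YPA and -2.58 in *GS115*-YPAH5x, beside -1.0 and -0.89 for the permease gene. BQ9382_C3-6440, after BQ9382_C3-6435, had 0.17 and -0.14. In *X33*-YPA BQ9382_C2-6315 and BQ9382_C2-6325 had -0.73 and -1.42, beside -0.35 for BQ9382_C2-6320. The gene before BQ9382_C3-1840, BQ9382_C3-1835, annotated as an osmosensing response regulator, had -1.79 in *X33*-YPA and -0.20 in *GS115*-YPAH5x. Its direct difference was -1.59 (adjusted p = 0.000162). The gene after BQ9382_C3-1840, BQ9382_C3-1845, is annotated as a polyamine permease and was named after its values were seen. It had 0.03 (adjusted p = 0.881) in *X33*-YPA and 1.27 (adjusted p = 4.23e-05) in *GS115*-YPAH5x, and was lower by -1.24 (adjusted p = 0.000336) in *X33*-YPA than in *GS115*-YPAH5x. BQ9382_C2-6770, elsewhere on the scaffolds, also carries an annotation as a high-affinity polyamine permease and was named after its values were seen. It had -0.18 (adjusted p = 0.31) in *X33*-YPA, -0.03 (adjusted p = 0.884) in *GS115*-YPAH5x and -0.15 (adjusted p = 0.436) directly. If the sequences of BQ9382_C3-1840 and BQ9382_C3-1845 are close, reads may be shared between them, which was not tested.

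The genes nearest in pattern were taken from 4374 genes with a mean of at least 10 CPM, by the root mean square difference of centred log2 CPM over the 6 libraries. Nearest to BQ9382_C2-3380 were BQ9382_C1-1210, a cell wall protein similar to glucanases (0.15), BQ9382_C4-0195 (0.16) and the protein kinase-like BQ9382_C3-2375 (0.19). Nearest to BQ9382_C4-3750 were BQ9382_C4-2710 (0.14), BQ9382_C4-3320 (0.17) and the adhesin-like BQ9382_C3-6445 (0.19), and nearest to BQ9382_C2-5105 were BQ9382_C4-5245 (0.19), BQ9382_C3-3810 (0.20) and again BQ9382_C4-3320 (0.22). BQ9382_C2-5105 and BQ9382_C4-3750 differed from each other by 0.26, and no other 2 of the 6 permease genes were as near.

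For BQ9382_C3-1840 the nearest genes were BQ9382_C4-0550 (0.18), BQ9382_C4-3350 for adenylate cyclase (0.18) and the zinc finger gene BQ9382_C1-3910 (0.19). BQ9382_C2-6320 lay nearest to BQ9382_C3-1065, BQ9382_C4-1690 and BQ9382_C3-4420 (0.05 to 0.06), and BQ9382_C3-6435 to BQ9382_C1-4670, BQ9382_C3-4535 and BQ9382_C2-3855 (0.08 to 0.09). Both of these permease genes varied less over the libraries than the other 4, so the distances are not compared between permeases. The 6 libraries are shared by all of these values, which are a description only.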

How the data were processed

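RNA of 6 libraries, 2 for each culture, was sequenced on an Illumina instrument after ribosomal RNA had been depleted with a kit made for bacteria. The authors deposited raw counts per gene, 1 column per library. Among the tools in the submitters' processing notes are featureCounts 1.6.4, Bowtie2 and fastp 0.19.6. For the genome build, the strand setting and reads shared between close copies, the sources used here say nothing. Groups were taken from the labels, following the genotype field (*his4*) where the description calls *GS115* wild type.

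Counts were tested with edgeR 4.0.16 under R 4.3.3: filterByExpr (5426 of 5427 genes kept), TMM scaling, and 1 quasi-likelihood fit to all 6 libraries with 3 residual degrees of freedom, a common biological coefficient of variation of 0.132 and Benjamini-Hochberg adjustment over all tested genes. An adjusted p under 0.05, at any fold, is called higher, lower, rose or fell. The SE is the log2 fold change divided by the square root of F. The study cultured cells in duplicate. The p-values set each difference against a spread estimated from the duplicates of all 3 cultures, with information shared between genes. Duplicates differed by more than counting noise, with chi-square per degree of freedom of 141, 69.7 and 40.8.

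The 6 genes and the lists, built from the descriptions in the table, were chosen with earlier results of these data known. The 6 genes are given in full. Of the other permeases the 3 with the largest mean CPM and the largest rise and fall of each comparison are named, of the other lists up to 3 genes by mean CPM, and for each of the 6 genes the 3 nearest in pattern. Exceptions are marked.

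In simulated counts of 5426 genes, X33-YPA against GS115-YPAH5x, 97 of 100 genes with a true log2 difference of 1, and 100 of 100 with one of 2, were called, with 14 of 5226 unchanged genes. The simulation gave every gene the same spread and changed 200 genes, far fewer than were called in the data. Its rates therefore do not give the error rates of these data. Alternatives were DESeq2 1.42.0, its size factors, no TMM, other low-count filters, a robust fit, fits of 2 groups, leaving out the 10 most abundant genes, leaving out each library, the study's fold threshold and Pearson likeness. No sequences were used here.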

Additional observations from a re-analysis of the deposited data

How the results depend on the processing

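No change of sign against *GS115*-YPA was seen for BQ9382_C2-3380, BQ9382_C2-5105, BQ9382_C4-3750 and BQ9382_C3-6435 under the 14 alternatives of the fit, nor a change of sign or of call for BQ9382_C4-3750 in the direct comparison. The fold threshold of 2 on the log2 scale left 138 genes higher and 231 lower in *X33*-YPA, 142 and 147 in *GS115*-YPAH5x, and 2 and 40 in the direct comparison, in place of 1812, 1778, 1667, 1579, 1075 and 1172. Without TMM the median of all genes shifted by -0.20 in *GS115*-YPAH5x and by 0.27 in the direct comparison, where 2040 genes were then higher and 671 lower; in *GS115*-YPAH5x 1228 were higher and 2031 lower. Without TMM BQ9382_C2-6320 had -0.28 and 0.10 against *GS115*-YPA and -0.39 directly, and BQ9382_C3-6435 had -1.09 in *GS115*-YPAH5x. BQ9382_C2-5105 passed the direct comparison with DESeq2 (-0.55), the robust fit (-0.53) and the fit of 2 groups (-0.54), and had -0.26 without TMM; its adjusted p over all alternatives ran from 0.0097 to 0.262, that of BQ9382_C2-3380 from 0.00111 to 0.144 and that of BQ9382_C2-6320 from 0.00134 to 0.0846. With each library left out in turn, the direct comparison had 323 to 1394 genes higher and 611 to 1397 lower, BQ9382_C2-3380 0.47 to 0.78, BQ9382_C2-6320 -0.75 to -0.56 and BQ9382_C2-5105 -0.67 to -0.41, and BQ9382_C2-6320 in *X33*-YPA against *GS115*-YPA had -0.43 to -0.32. With Pearson's r, 1 of the 3 genes nearest to BQ9382_C4-3750 was shared with those named, and no gene for the other 5 permeases. No paired analysis was possible because the labels give the libraries different letters and no shared replicate numbers. The cause of these shifts was not tested.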
